A study of Homo sapiens with 36 samples.

Results

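The 6 genes described here encode inhibitors of cyclin-dependent kinases: the INK4 family, CDKN2A, CDKN2B, CDKN2C and CDKN2D, and the KIP genes CDKN1B and CDKN1C. They were the rows so named in a targeted RNA-Seq panel of 2549 genes, and all 6 were found. The panel was counted in lysates of 36 human lymphoma cell lines, immortal cultures used as laboratory models of lymphoma, with 1 library per line. The labels name the lines and give no disease class, treatment or time, so levels were compared across lines, without any replicate error. Samples were run as singletons.

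INK4 proteins bind the kinases CDK4 and CDK6 and keep them from joining the D-type cyclins, so that the retinoblastoma protein RB1 stays unphosphorylated and E2F factors stay silent. KIP proteins bind assembled cyclin and kinase complexes, above all those of cyclin E and CDK2. CDKN2A makes 2 unrelated proteins from separate first exons: p16 is the INK4 inhibitor, and ARF blocks MDM2. CDKN2A and CDKN2B lie side by side on the short arm of chromosome 9, a stretch often deleted in aggressive B-cell and mantle cell lymphoma.

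Total counts per library ran from 6422917 to 13451527, with a median of 10476681. Levels are in CPM, counts scaled to a common library size and by the library's TMM factor, which corrects for differences in RNA composition and ran from 0.602 in OCILY8 to 1.87 in MEC1. Intervals are exact 95% Poisson intervals, a count of 0 is read as allowing 3 counts, and both cover counting error only. A level was called background at or below the counts of the library's highest control probe, which had a median of 10 counts. MEC1 stood apart, with 424 counts for that probe against 64 in the next library, RCK8. The summed level of 6 B-cell genes ran from 4550 CPM in MEC1 to 81180 CPM in KARPAS1718, with a median of 26770 CPM, and none of the 6 was at background in any line. The summed level of 6 T and NK cell markers ran from 19.4 to 773.9 CPM, the highest in MEC1, that of 8 myeloid markers from 126 to 980.7 CPM, and that of 7 stromal and endothelial markers from 32.7 to 1184 CPM.

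Start regions are shown for the 2 neighbouring pairs of genes whose levels are set side by side below, CDKN2A with CDKN2B and CDKN2C with FAF1. Each is the 250 bases before a RefSeq start on GRCh38.p14, written 5′ to 3′ on the gene's strand. Capitals mark each CG, the dinucleotide that DNA methylation acts on.
CDKN2A before the start at the p16 first exon, minus strand, chr9:21974858-21975107: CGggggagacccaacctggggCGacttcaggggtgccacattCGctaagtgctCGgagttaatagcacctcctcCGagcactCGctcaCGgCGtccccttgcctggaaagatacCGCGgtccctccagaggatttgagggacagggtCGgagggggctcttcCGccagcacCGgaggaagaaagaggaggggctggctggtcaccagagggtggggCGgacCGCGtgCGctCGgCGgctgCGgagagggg
CDKN2A before the start at the ARF first exon, minus strand, chr9:21995325-21995574: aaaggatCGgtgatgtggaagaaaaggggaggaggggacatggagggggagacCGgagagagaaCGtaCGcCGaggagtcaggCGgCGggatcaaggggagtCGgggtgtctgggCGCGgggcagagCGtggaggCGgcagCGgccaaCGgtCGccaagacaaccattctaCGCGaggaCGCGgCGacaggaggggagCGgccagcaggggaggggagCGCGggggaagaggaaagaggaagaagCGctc
CDKN2B, minus strand, chr9:22009306-22009555: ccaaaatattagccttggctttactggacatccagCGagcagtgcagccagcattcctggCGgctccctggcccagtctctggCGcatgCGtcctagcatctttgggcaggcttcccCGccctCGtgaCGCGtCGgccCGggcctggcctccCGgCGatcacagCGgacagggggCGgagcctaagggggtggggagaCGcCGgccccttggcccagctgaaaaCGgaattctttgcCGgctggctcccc
CDKN2C before its first annotated start, plus strand, chr1:50960495-50960744: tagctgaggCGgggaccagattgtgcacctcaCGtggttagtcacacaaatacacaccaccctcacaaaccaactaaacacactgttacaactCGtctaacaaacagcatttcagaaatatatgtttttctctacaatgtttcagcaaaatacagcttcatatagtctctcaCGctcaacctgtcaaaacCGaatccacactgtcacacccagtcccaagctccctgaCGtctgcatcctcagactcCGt
FAF1, minus strand, chr1:50960268-50960517: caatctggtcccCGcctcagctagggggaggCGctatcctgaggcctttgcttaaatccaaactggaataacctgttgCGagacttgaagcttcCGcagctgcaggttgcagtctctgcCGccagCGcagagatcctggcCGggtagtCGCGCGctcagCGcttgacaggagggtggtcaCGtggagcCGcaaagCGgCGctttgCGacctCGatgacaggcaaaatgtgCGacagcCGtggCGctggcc
These windows hold 20, 24, 18, 7 and 20 CG, in the order shown, against a median of 11 over 34943 windows of the same length. CDKN2C has another start inside the gene, preceded at chr1:50968456-50968705 by 35 CG, a number that 5.8% of all windows reach. The window before a further inner start, at chr1:50969995-50970244, holds 10 CG, a number that 52.1% of windows reach. GGGCGG, the core of the SP1 motif, was found on either strand 5 times before the first of these inner starts of CDKN2C and 1 time before the other, 2 times before CDKN2B, 1 time before the p16 start and not at all in the other 3 windows shown. It occurs in 42.5% of all windows. Such matches describe letters and are not binding sites. Of the 6 inhibitors, 5 had an entry, and methylation was not measured.

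The 6 genes differed in how far their levels spread between lines. The SD of log2 CPM over the 36 lines was 2.92 for CDKN2A, 2.13 for CDKN2B, 1.93 for CDKN2C, 2.05 for CDKN1C, 0.92 for CDKN2D and 0.90 for CDKN1B, against a median of 1.2 over the 2406 genes that reached 10 CPM in 4 or more lines. CDKN2A varied more than 99.2% of those genes and CDKN1B more than 30.6%. Poisson counting accounted for at most 0.693% of the variance, in CDKN2B. Since each library is a lysate of many cells, fewer cells with the RNA and less RNA per cell cannot be told apart. No inhibitor was at background in 28 lines, 1 was in 4 lines, and 2 were in 4 lines.

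**Figure D1:**
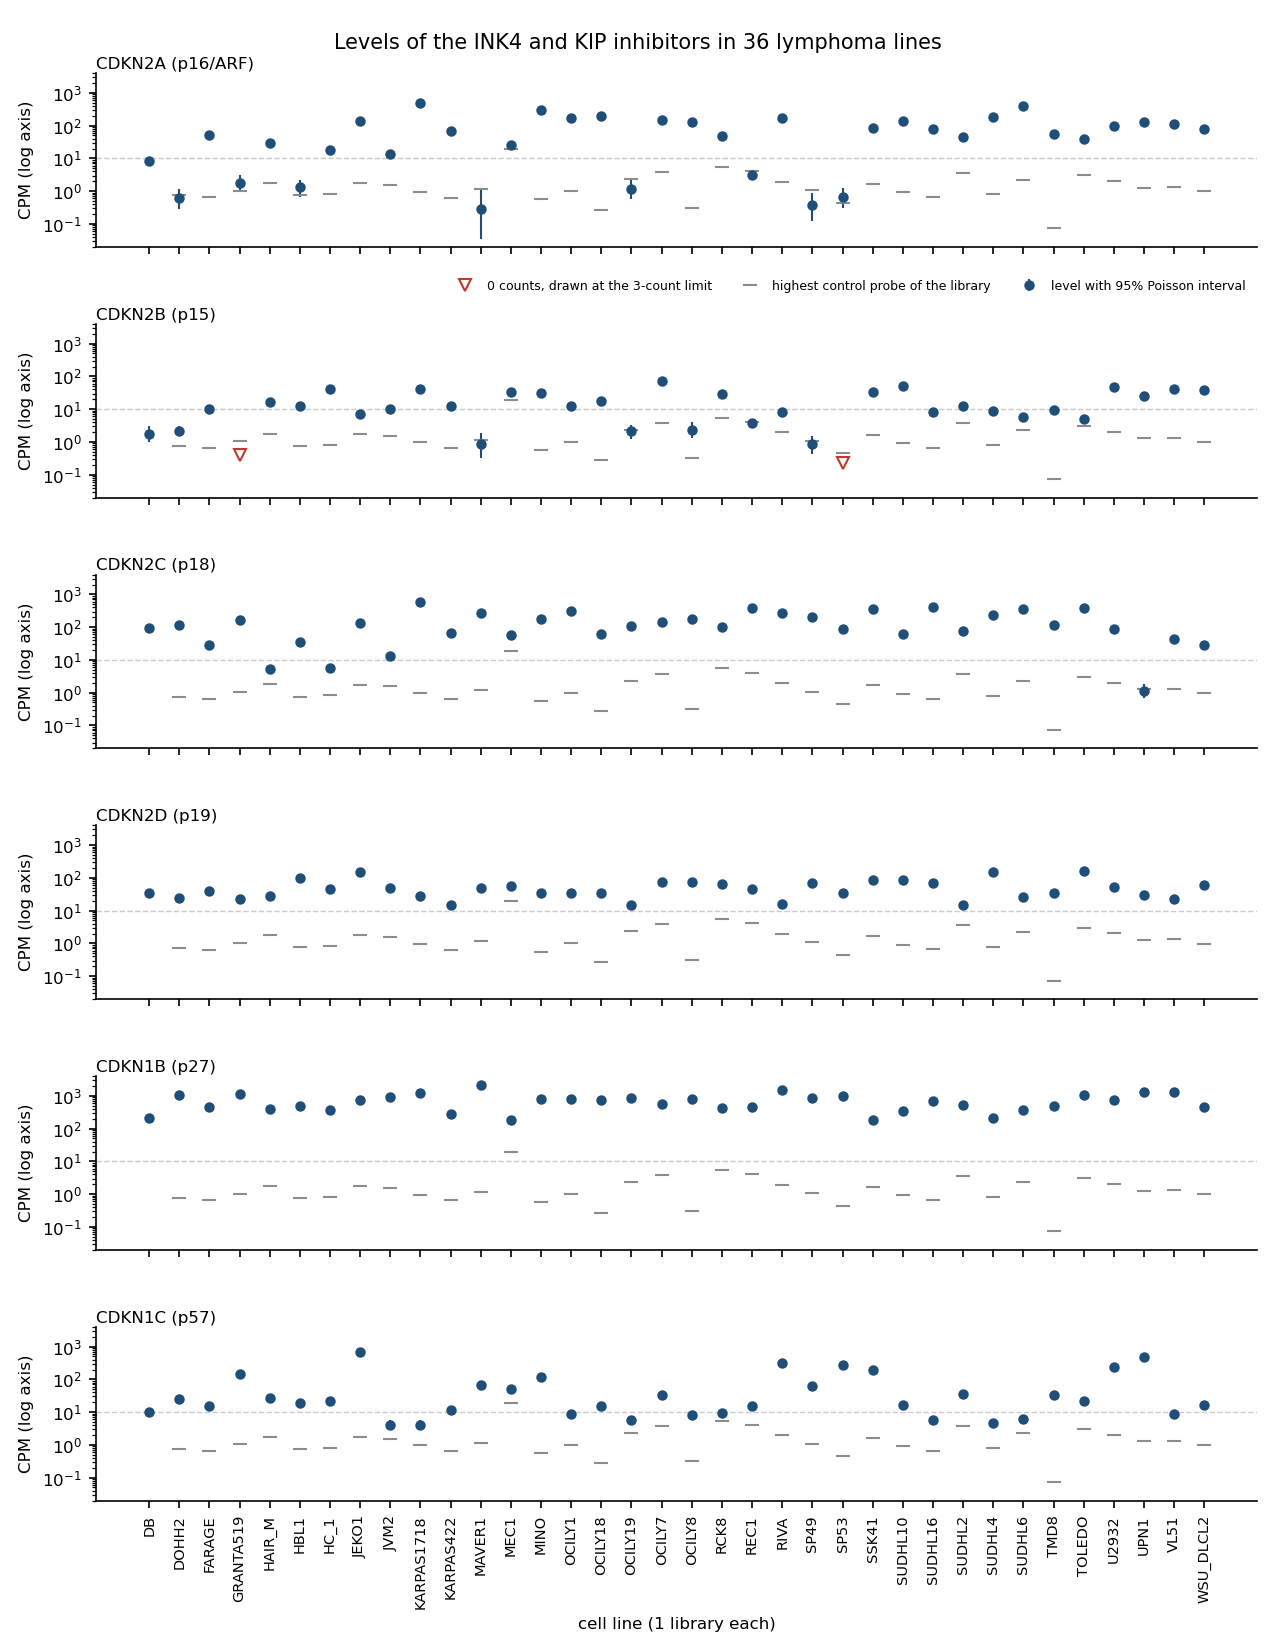
Level of each inhibitor in each of 36 lines, in CPM on a log axis, with 95% Poisson intervals. Grey ticks are the highest control probe (0 counts in DB, so no tick), the dashed line is 10 CPM, and red triangles are counts of 0 drawn at the 3-count limit. CDKN2A and CDKN2B reach background in several lines and CDKN2C in UPN1, while CDKN2D, CDKN1B and CDKN1C do not.

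CDKN2A, which encodes p16 and ARF, was at background in 5 lines and abundant in most others. It lies on chromosome 9 of hg38 at 21967753 to 21995301. The table does not say which of its transcripts the panel targets, so p16 and ARF RNA cannot be told apart. The lowest levels were 0.293 CPM in MAVER1 (2 counts, 0.0355 to 1.06 CPM), 0.386 in SP49 (0.125 to 0.902), 0.611 in DOHH2, 0.664 in SP53 and 1.17 in OCILY19. HBL1 at 1.30 CPM, GRANTA519 at 1.80, REC1 at 3.05 and DB at 8.05 completed the 9 lines under 10 CPM. Of these, MAVER1, SP49, DOHH2, OCILY19 and REC1 were at or below the highest control probe. The median line had 62.5 CPM and 13 lines passed 100 CPM, led by KARPAS1718 (476.8 CPM), SUDHL6 (392.9), MINO (291.7), OCILY18 (202.5) and SUDHL4 (178.8). Ordered by level, 23 of the 35 neighbouring pairs of lines had overlapping intervals. The widest gap between neighbours was 1.35 log2 units, so the lines did not fall into 2 separate clusters by the rule used here, a gap of at least 1.5 log2 units.

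CDKN2B encodes p15, the INK4 inhibitor that TGF-beta is known to induce. It lies beside CDKN2A at 22002903 to 22009363 and was the only inhibitor with lines at 0 counts. SP53 and GRANTA519 had 0 counts, which allow up to 0.221 and 0.386 CPM. The next lowest were SP49 at 0.850 CPM, MAVER1 at 0.879, DB at 1.80 and OCILY19 at 2.11. REC1, at 3.70 CPM, was the sixth line at or below its control probe, with SP53, GRANTA519, SP49, MAVER1 and OCILY19. The median was 11.1 CPM, 17 lines were under 10 CPM and none passed 100 CPM. OCILY7 (74.7 CPM), SUDHL10 (52.2), U2932 (47.0), HC_1 (42.6) and KARPAS1718 (41.5) were highest. The order within the low and middle range was loose, with overlapping intervals in 33 of 35 neighbouring pairs.

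Most lines low in CDKN2A were also low in CDKN2B. Both genes were under 10 CPM in 8 lines: DB, DOHH2, GRANTA519, MAVER1, OCILY19, REC1, SP49 and SP53. These were 88.9% of the 9 lines low in CDKN2A and 47.1% of the 17 low in CDKN2B. HBL1 was the 1 line low in CDKN2A alone, with 12.4 CPM of CDKN2B. Among the 9 lines low in CDKN2B alone, SUDHL6 had 392.9 CPM of CDKN2A with 5.81 CPM of CDKN2B, and OCILY8 had 127.1 CPM with 2.37 CPM. MAVER1, SP49, OCILY19 and REC1 were at background for both genes, DOHH2 for CDKN2A alone, and GRANTA519 and SP53 for CDKN2B alone. This set depends on the background used. REC1 had 42 and 51 counts, below the 56 of its own control probe, and with 10 counts as background 2 lines, MAVER1 and SP53, were at background for both genes. GRANTA519, MAVER1, REC1, SP49 and SP53 are known as mantle cell lymphoma lines. JEKO1, MINO and UPN1, known as lines of the same disease, had 134.2, 291.7 and 127.9 CPM of CDKN2A. CCND1, the cyclin D1 gene that defines most of that disease, was at 24020 CPM in MAVER1, 13370 in MINO, 2770.6 in GRANTA519, 91.2 in REC1 and 27.4 in SP49, but at 13.0 in UPN1, 8.77 in JEKO1 and 7.90 in SP53, against a median of 18.8 CPM over the 36 lines. CCND1 counts in UPN1, JEKO1 and SP53 were thus below the median, against what those names are known for. The sources used here do not say which part of CCND1 the panel targets, so transcripts without that part would not be counted. DNA copy number is not in these tables, so whether a line at background has lost the gene was not tested.

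**Figure D2:**
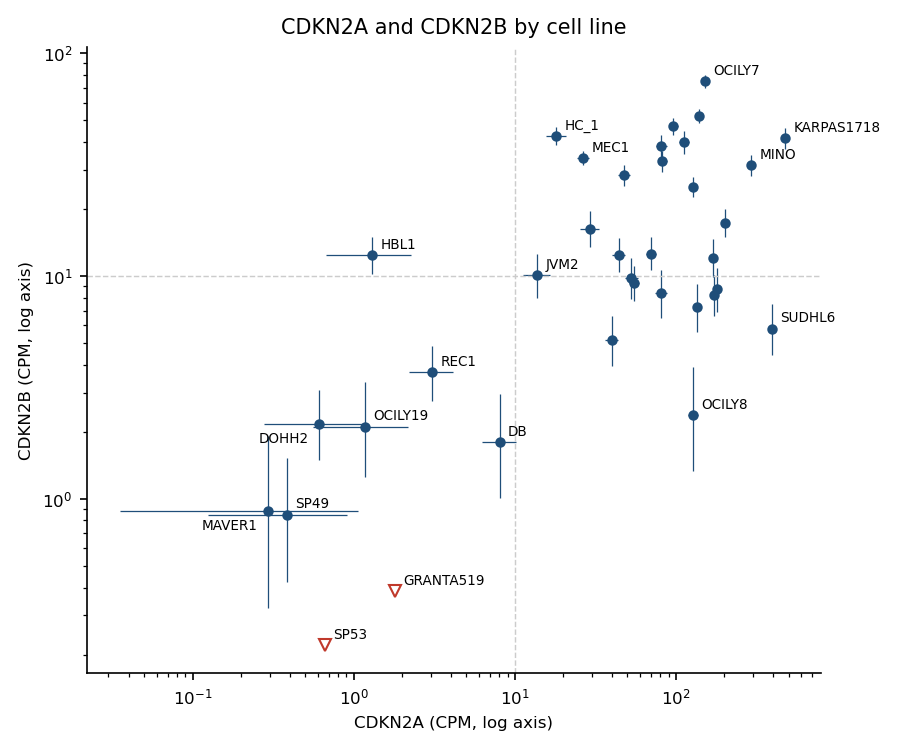
CDKN2A (horizontal) and CDKN2B (vertical) in CPM on log axes, 1 point per line with 95% Poisson intervals. Dashed lines mark 10 CPM and red triangles are CDKN2B counts of 0 at the 3-count limit. The lower left holds the 8 lines low in both genes, and HBL1 is alone in the upper left.

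Across all 36 lines CDKN2A and CDKN2B had a Spearman rho of 0.51 and a Pearson r of 0.70 of log2 CPM. Without MAVER1 and SP49 rho was 0.43 and r 0.64, with GRANTA519 and SP53, at 0 counts of CDKN2B, still included. These values describe libraries that share one scaling. Each inhibitor's log2 CPM was also used as the predictor in an edgeR quasi-likelihood fit of every other tested gene, with Benjamini-Hochberg adjustment over 2405 genes and a call at an adjusted p under 0.05. A slope is in log2 units of the gene per log2 unit of the inhibitor, with its SE. CDKN2A rose with CDKN2B by 0.73 ± 0.23 (edgeR, adjusted p = 0.0314), in a fit where 18% of all genes were called. With the log2 TMM factor as a further term the slope was 1.11 ± 0.20 (adjusted p = 0.00184). The call was lost when any of DB, GRANTA519, MAVER1, MEC1, OCILY7, SP53 or SUDHL10 was left out, with an adjusted p of at most 0.125 (without DB). The reverse slope, CDKN2B on CDKN2A, was 0.46 ± 0.11 (edgeR, adjusted p = 0.0601) and passed with the factor in the fit (0.48 ± 0.09, adjusted p = 0.00443). The 2 genes are paralogs of similar sequence and the sources used here give no counting method, so reads shared between them could touch both levels.

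That was the 1 call among the 30 slopes between the 6 inhibitors, which make 15 pairs. The other pairs had rho from -0.37, for CDKN2C with CDKN2B, to 0.21. CDKN2C with CDKN2B was -0.05 once both were regressed on the TMM factor. CDKN1B and CDKN2B had a rho of -0.32. A slope that misses the threshold does not show that 2 inhibitors vary independently. CDKN1A, which encodes the remaining KIP inhibitor p21, and the kinase-associated phosphatase gene CDKN3 were not called on any of the 6 by edgeR. DESeq2 called 1 of the 2 on CDKN2C, where it called 34.6% of all genes, and 1 had an unadjusted p under 0.05 in edgeR, as did 39.1% of all genes.

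Genes near CDKN2A on chromosome 9 were looked at because they share its DNA. The 6 tested panel genes within 5 Mb were MLLT3, a subunit of a transcription elongation complex, the interferon genes IFNB1, IFNW1, IFNA5 and IFNA2, and CDKN2B. None was called on CDKN2A, where 0.249% of all genes were, and the slopes of MLLT3 and the interferon genes lay between -0.07 and 0.09. In the 4 lines at background for both inhibitors, IFNB1, an antiviral cytokine gene 0.917 Mb from CDKN2A, was at 15.7 CPM in MAVER1, 18.8 in SP49, 16.5 in OCILY19 and 22.6 in REC1, against a median of 39.2 CPM over all lines. IFNA2, another interferon gene, 0.61 Mb away, was at 132.8 CPM in MAVER1, 10.1 in SP49, 10.7 in REC1 and 0.586 in OCILY19, where it was at background. The 4 lines thus spanned nearly the whole range of IFNA2, whose highest level was 148.6 CPM in HC_1. On CDKN2B the slopes of IFNB1 (0.34 ± 0.09, edgeR adjusted p = 0.026), IFNW1 (0.33 ± 0.09) and IFNA5 (0.35 ± 0.10) were called, and none of these 3 was with the TMM factor in the fit (IFNB1 adjusted p = 0.48), nor without DB, SUDHL10 or MEC1.

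On CDKN2A 6 genes were called, 1 rising (0.0416%) and 5 falling (0.208%), and 170 had an unadjusted p under 0.05. With the TMM factor 8 (0.333%) were called, 2 rising (0.0832%) and 6 falling (0.249%). CDC7, a kinase that fires replication origins, rose by 0.21 ± 0.05 (edgeR, adjusted p = 0.0152), and its call was lost without KARPAS1718 (0.0651) or SP49. The other 5 fell. PCSK6, a proprotein convertase gene, fell by 0.51 on the log2 scale (SE 0.07, edgeR adjusted p = 9.96e-06) and was called whichever 1 line was left out, with an adjusted p of at most 0.000167. PCSK6 was at 151.9 CPM in MAVER1, 138.4 in SP49, 72.3 in SP53, 68.5 in REC1 and 51.0 in GRANTA519, all under 10 CPM of CDKN2A, and its median was 5.33 CPM. DB, OCILY19, DOHH2 and HBL1, also low in CDKN2A, had 1.44, 3.75, 11.5 and 14.6 CPM of PCSK6, so the low lines did not share this level. MAVER1, SP49, SP53, REC1 and GRANTA519 were all named above as mantle cell lymphoma lines. Leaving out 1 line at a time does not remove them together. JEKO1, MINO and UPN1, of the same disease, had 3.84, 1.49 and 3.54 CPM of PCSK6. GAS6, a ligand of TAM receptors, lost its call without SP49 (adjusted p = 0.137). SOX7, NRIP1 and CEBPD, named after their values were seen, lost theirs without OCILY19. Pathway genes were taken from 8 lists of cell cycle genes and of genes known to act on the inhibitors, 83 tested in all. None of the 83 was called by edgeR or DESeq2, which called 1.87% of all genes, and 6 had an unadjusted p under 0.05, as did 7.07% of all genes. MDM2, on the ARF branch, was not called. The nearest genes by rank were CDC7 (rho 0.62), ATP6V1G2 (0.60) and NEIL1 (0.60), and the most opposed PCSK6 (-0.61), GAS6 (-0.60) and TIMP1 (-0.56).

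On CDKN2B 432 genes were called, 391 rising (16.3%) and 41 falling (1.7%). With the TMM factor in the fit 7 (0.291%) were called, 4 rising (0.166%) and 3 falling (0.125%), and without MEC1 9 were called. The rho of the factor with CDKN2B was 0.42. Without the factor 5 of the 83 pathway genes fell with CDKN2B: the pocket protein genes RB1 (-0.29 ± 0.10) and RBL1 (-0.22 ± 0.08), the survivin gene BIRC5, the proliferation marker MKI67 and the thymidine kinase gene TK1. The B-cell factor PAX5 also fell (-0.23 ± 0.06, edgeR adjusted p = 0.026). None of these 6 was called with the factor, nor without DB, GRANTA519, SUDHL10 or MEC1. Over the same lines 4 of 6 T and NK cell markers rose, as did 4 of 8 myeloid markers (1 fell) and 1 of 6 stromal markers, and none did with the factor. The part of those transcripts in the slopes on CDKN2B was not tested. The nearest genes by rank were the endothelial receptor gene TIE1 (rho 0.67), MSH4 (0.67) and the NOTCH ligand gene JAG1 (0.65). Among the most opposed were PAX5 (-0.61) and ARID2 (-0.59), of which ARID2 was not called (edgeR adjusted p = 0.0906). TIE1 rose by 0.43 ± 0.10 (edgeR, adjusted p = 0.0254, and 0.047 with the factor), and lost its call without DB or without MEC1.

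CDKN2C encodes p18, an INK4 inhibitor known for its part in ending the cell cycle as B cells become plasma cells. It was abundant in most lines and at background in UPN1. It lies on chromosome 1 of hg38 at 50960745 to 50974633. UPN1 had 1.16 CPM (18 counts, 0.686 to 1.83 CPM), against 20 counts for its highest control probe. HAIR_M at 5.10 CPM, HC_1 at 5.63, JVM2 at 13.5 and FARAGE at 28.0 followed. The median was 109 CPM and 19 lines passed 100 CPM. KARPAS1718 (599.9 CPM), SUDHL16 (408.4), TOLEDO (394.1), REC1 (373.5) and SSK41 (350.4) were highest. REC1 was thus among the highest lines for CDKN2C and at background for CDKN2A and CDKN2B.

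The gene whose start lies nearest to that of CDKN2C followed it across lines. FAF1, which encodes a FAS-associated adaptor of the ubiquitin pathway, runs the other way at 50437028 to 50960263, so that the 2 genes start 482 bases apart, head to head. The windows printed above overlap at their far ends. FAF1 had 3.09 CPM in UPN1 (2.27 to 4.09), 130.2 in HAIR_M, 147.3 in HC_1 and 208.0 in JVM2, its 4 lowest lines. The same 4 lines were lowest for CDKN2C, in the same order, though the CDKN2C intervals of HAIR_M and HC_1 overlap. Its median was 575 CPM and its highest level 1232 CPM, in KARPAS1718, also the highest line for CDKN2C. FAF1 rose with CDKN2C by 0.46 ± 0.08 (edgeR, adjusted p = 0.000157), in a fit where 13.1% of all genes were called. The slope was 0.43 with the TMM factor in the fit (adjusted p = 0.00156) and 0.37 ± 0.06 without UPN1 (adjusted p = 2.51e-05). It was called whichever 1 line was left out. Over 36 lines rho was 0.71 and r 0.81, and without UPN1 and HAIR_M rho was 0.66 and r 0.76. The other 6 tested genes within 5 Mb were not called. They include TAL1, a transcription factor of blood stem cells, with a slope of -0.38 ± 0.19 (adjusted p = 0.128).

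**Figure D3:**
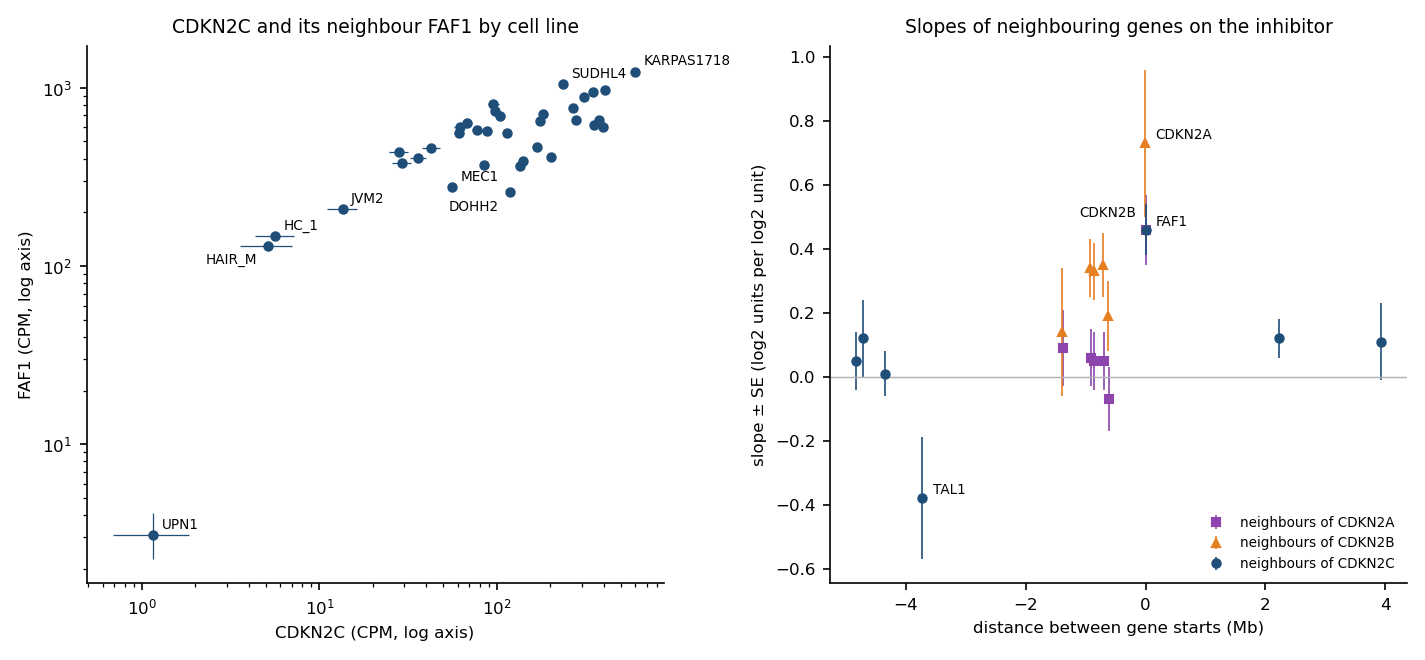
Left, CDKN2C and FAF1 in CPM on log axes, 1 point per line with 95% Poisson intervals. Right, slope of each tested gene within 5 Mb on the inhibitor (± SE) against the distance between gene starts in Mb. UPN1 is the lowest line in both genes, far below all others in FAF1 but nearer to HAIR_M and HC_1 in CDKN2C. FAF1 stands above the other neighbours of CDKN2C at a slope of 0.46.

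UPN1 had the lowest level of all lines for CDKN2C, for FAF1 and also for RB1, which is named here after its values were seen. RB1, the pocket protein that restrains E2F, was at 2.12 CPM in UPN1 (1.46 to 2.98), against 41.7 CPM in the next lowest line, HAIR_M, and a median of 503 CPM. RB1 lies on chromosome 13, away from CDKN2C. Other inhibitors were abundant in the same library: CDKN1B at 1357.5 CPM ranked 3 among the 36 lines and CDKN1C at 488.6 CPM ranked 2. TFDP2, a dimer partner of E2F factors, was highest of all lines there at 1694 CPM. Whether these levels go with changes in the line's DNA was not tested.

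On CDKN2C, 315 of 2405 genes were called, 134 rising (5.57%) and 181 falling (7.53%). With the TMM factor in the fit 83 (3.45%) were called, 16 rising (0.665%) and 67 falling (2.79%), and 80 of the 83 were among the 315. The factor itself had a rho of -0.42 with CDKN2C, and how far it sets these slopes was not tested. Of the 83 pathway genes, 15 rose and 1 fell with CDKN2C, and with the factor 2 rose and 1 fell. An unadjusted p under 0.05 was found for 27 of the 83 in edgeR, against 39.1% of all genes. DESeq2 also called 27 of them, against 34.6% of all genes, so neither share was above that of all genes.

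The 1 that fell was CCND2, the D-type cyclin that p18 acts against through CDK4 and CDK6. Its slope was -1.09 ± 0.22 (edgeR, adjusted p = 0.00162), and -1.10 with the factor (adjusted p = 0.00245), and it was called whichever 1 line was left out, with an adjusted p of at most 0.00996. CCND2 was at 1300 CPM in HAIR_M, 1666 in HC_1 and 3474 in JVM2, which are low in CDKN2C, and at 24.9 CPM in KARPAS1718 and 7.33 in SUDHL16, which are high. UPN1 and FARAGE, low in CDKN2C at 1.16 and 28.0 CPM, did not follow this order, with 24.6 and 38 CPM of CCND2. VL51, at 42.5 CPM of CDKN2C against a median of 109 CPM, had 3388 CPM of CCND2. The rho was -0.47 and the median level of CCND2 42.1 CPM.

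The 15 that rose with CDKN2C came from 6 of the lists. Among 12 G1 cyclins and kinases they were CDK4, the kinase that p18 binds (0.22 ± 0.07, edgeR adjusted p = 0.0356), and the 2 cyclin E genes CCNE1 (0.28 ± 0.09) and CCNE2 (0.24 ± 0.08). Among 8 pocket protein and E2F genes it was E2F1 (0.28 ± 0.09). Among 25 S phase and mitosis genes they were CDC6, a loader of the replicative helicase (0.22 ± 0.06), MYBL2, a transcription factor of cycling cells (0.29 ± 0.09), and the helicase subunit MCM7 (0.24 ± 0.08). With the factor, MYBL2 (adjusted p = 0.0411) and the kinase AKT1 (0.25, adjusted p = 0.0304) passed, and CDC6 had an adjusted p of 0.0528. The other risers were the kinase AKT2, COPS5, a subunit of the signalosome, the maintenance DNA methyltransferase DNMT1, the Polycomb methyltransferase EZH2, and TGFB1, SMAD2 and SMAD4 of the TGF-beta pathway. AKT1, CDC6, SMAD4 and TGFB1 were called whichever 1 line was left out. DNMT1 lost its call without HC_1 and MYBL2 without HC_1, OCILY8 or REC1, and for each of the other 9 there were 5 to 26 lines whose removal, singly, ended the call. CDK6 was not called (0.19 ± 0.15), nor were any of the 10 tested genes listed for the ARF branch. The median slope was 0.17 over the G1 list and 0.11 over the S phase list, against 0.03 over all tested genes. With the factor these medians were 0.14 and 0.05, against 0. Such medians were not particular to these lists. Without the factor they were 0.22 for the TGF-beta and SMAD list and 0.20 for the Polycomb and DNA methylation list. The pocket protein and E2F list had 0.14 and the p27 turnover and FOXO list 0.13. The ARF branch list had 0.05, and CDKN1A with CDKN3 had -0.12.

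**Figure D4:**
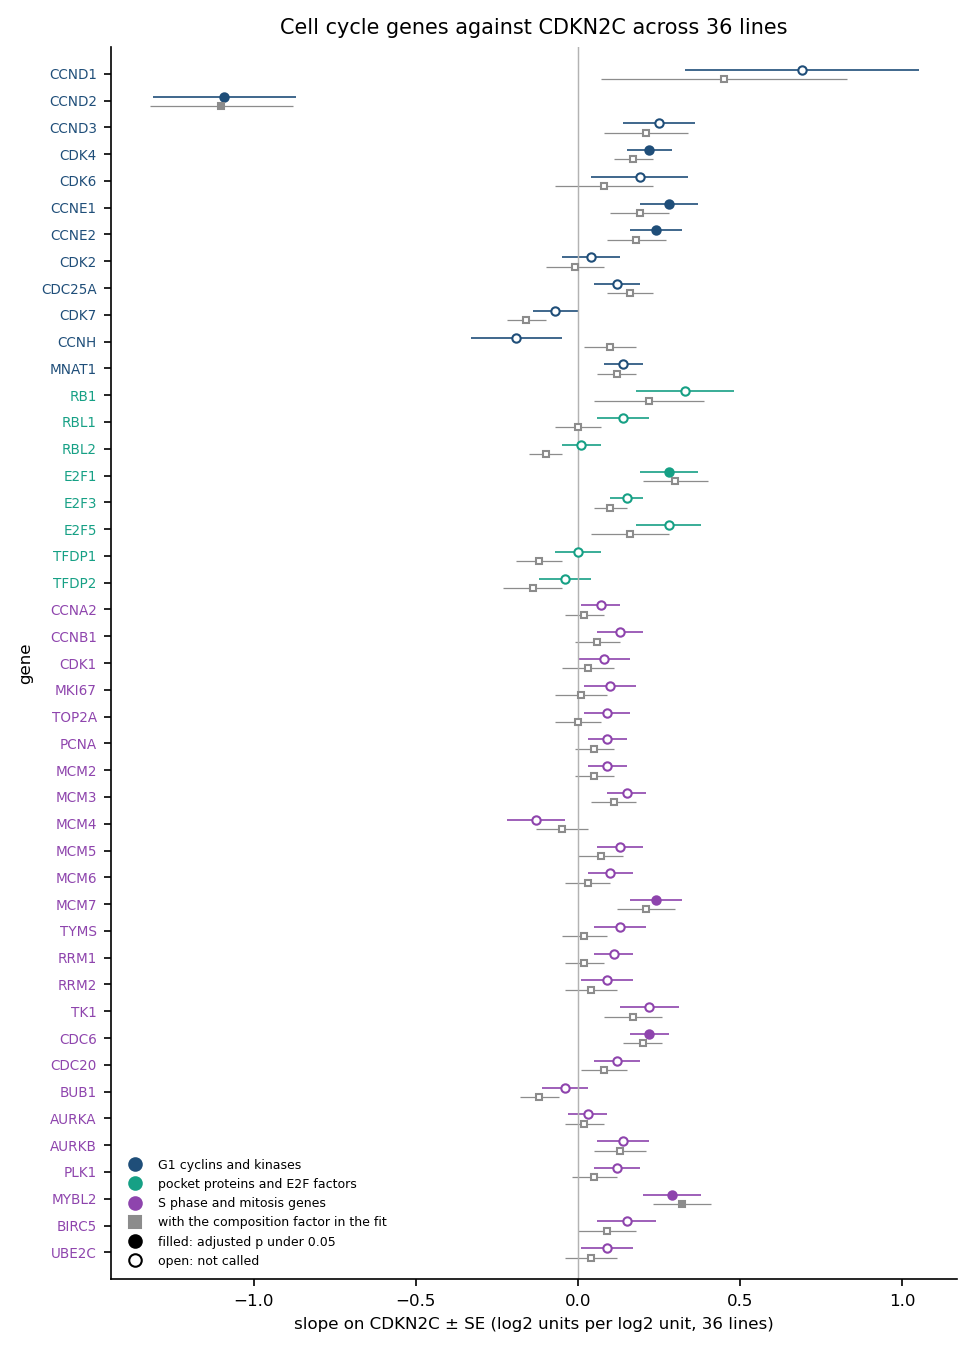
Slope of 45 cell cycle genes on CDKN2C over 36 lines, in log2 units per log2 unit, with SE. Circles are the fit on CDKN2C alone, grey squares the fit with the TMM (composition) factor, and filled symbols have an adjusted p under 0.05. CCND2 stands alone far to the left, at -1.09 and, with the factor, -1.10.

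By rank, ASB16-AS1 (rho 0.73) and AKT1 (0.72) were among the genes most like CDKN2C over the 36 lines. Whether the counting used strand is not stated, so reads of ASB16-AS1 may include some of its antisense partner. The most opposed were the inflammatory cytokine gene IL1B (-0.74), the protease gene PLAU (-0.73) and CYP1B1, which encodes a cytochrome P450 (-0.72). PLAU lost its call when any of 9 lines was left out and CYP1B1 without KARPAS1718 (adjusted p = 0.0518). IL1B had a slope of -0.44 ± 0.11 (edgeR adjusted p = 0.0143, and 0.0395 with the factor). Of 6 B-cell genes PAX5 rose with CDKN2C (0.25 ± 0.07, edgeR adjusted p = 0.0276, and 0.138 with the factor). T and NK, myeloid, and stromal and endothelial markers had 0 of 6, 0 of 8 and 0 of 6 members called on CDKN2C. Their median slopes were -0.25, -0.24 and -0.23, and -0.06, -0.11 and -0.06 with the factor. The part of such transcripts in the falling genes was not tested.

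CDKN2D encodes p19, the remaining INK4 inhibitor, and was measured above background in every line within a narrow range. It lies on chromosome 19 at 10566462 to 10569059. Levels ran from 14.6 CPM in SUDHL2, 15.0 in OCILY19, 15.3 in KARPAS422, 16.4 in RIVA and 22.0 in GRANTA519 to 161.3 CPM in TOLEDO, 155.3 in JEKO1, 154.6 in SUDHL4, 100.6 in HBL1 and 86.3 in SSK41, with a median of 43 CPM. Intervals of neighbouring lines overlapped in 33 of 35 pairs. The lines at background for both CDKN2A and CDKN2B lay near or above the median, with 50.5 CPM in MAVER1, 67.5 in SP49 and 47.2 in REC1, except OCILY19, among the lowest at 15.0 CPM. On CDKN2D 2 genes were called (0.0832% of 2405), against 178 at an unadjusted p under 0.05, both falling. With the TMM factor 1 was called, also falling (0.0416%). The 2 genes, the transcription factor genes CEBPD (-2.03 ± 0.31) and SOX7 (-1.5 ± 0.32), were named after their values were seen. Both lost their call without OCILY19 (edgeR adjusted p = 0.297 and 0.859), and SOX7 then had a slope of 0.31. None of the 83 pathway genes was called by edgeR or by DESeq2, which called 1.37% of all genes, and 3 had an unadjusted p under 0.05, as did 7.4% of all genes. The nearest by rank were HSPA12A (rho 0.59), FGFR4 (0.58) and PCOLCE (0.54), and the most opposed SLK (-0.52), CHD1 (-0.47) and SAV1 (-0.44).

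CDKN1B encodes p27, which holds cyclin E and CDK2 in check in resting cells, and was abundant in every line. It lies on chromosome 12 at 12715058 to 12722371. All 36 lines passed 100 CPM, from 180.2 CPM in MEC1, 182.7 in SSK41, 207.5 in DB, 215.0 in SUDHL4 and 281.3 in KARPAS422 to 2118 CPM in MAVER1, 1529 in RIVA, 1358 in UPN1, 1344 in VL51 and 1266 in KARPAS1718, with a median of 709 CPM. MAVER1, at background for CDKN2A, was highest for CDKN1B. MEC1, among the lowest lines, was also the library with the highest control probe and the highest TMM factor. Counting error was small at these levels, and 18 of 35 neighbouring pairs of lines had overlapping intervals.

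On CDKN1B 375 genes were called (15.6% of 2405), 72 rising (2.99%) and 303 falling (12.6%). With the TMM factor 33 (1.37%) were called, 12 rising (0.499%) and 21 falling (0.873%), 26 of them among the 375. Without MEC1 69 were called. TFDP2, the partner of E2F factors, rose with CDKN1B by 0.93 ± 0.18 (edgeR, adjusted p = 0.00296), by 0.90 with the factor (adjusted p = 0.00754) and by 0.81 ± 0.18 without UPN1 (adjusted p = 0.0103). TFDP2 was at 1694 CPM in UPN1, 1212 in KARPAS1718 and 810.7 in RIVA, all high in CDKN1B, and had a median of 190 CPM. It was the 1 pathway gene of 83 called under both fits. Without the factor 5 rose and 1 fell. The others that rose were CCND1, SP1, SMAD4 and MDM4, and CCNH, the cyclin of the CDK-activating kinase, fell by 0.73 on the log2 scale. CCND1, the cyclin placed under an immunoglobulin enhancer in mantle cell lymphoma, rose by 2.50 ± 0.55 (edgeR, adjusted p = 0.00935), but its rho was 0.07, and without MAVER1, its highest line at 24020 CPM, the adjusted p was 0.0684. SP1 and MDM4 had adjusted p of 0.0597 and 0.0546 with the factor. CCNH, SP1, SMAD4 and MDM4 each lost their call without MEC1, KARPAS1718 or MAVER1.

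The genes nearest to CDKN1B by rank were SLC38A2, a neutral amino acid transporter (rho 0.73), ULK1, the kinase that starts autophagy (0.71), and RIF1, a regulator of replication timing and DNA repair (0.68). SLC38A2 rose by 0.73 ± 0.13 (edgeR, adjusted p = 0.00124) and ULK1 by 0.67 ± 0.14 (adjusted p = 0.00774). Both passed with the factor in the fit and whichever 1 line was left out. The most opposed were PDGFD, which encodes a platelet-derived growth factor (rho -0.80), the glycosyltransferase gene GALNT3 (-0.69) and SERPINA9, a serpin of germinal centre B cells (-0.65). PDGFD was at 13.8 CPM in MAVER1, 13.1 in RIVA, 6.03 in KARPAS1718 and 7.61 in VL51, which are high in CDKN1B, and at 143.0 CPM in MEC1, 247.4 in SSK41 and 491.7 in KARPAS422, which are low. Its slope was -1.30 ± 0.20 (edgeR, adjusted p = 0.000263), and -1.26 with the factor (adjusted p = 0.000671). GALNT3 at -1.03 ± 0.17 and SERPINA9 at -2.02 ± 0.44 also passed under both fits and whichever 1 line was left out. Of the 14 tested genes within 5 Mb, 2 fell with CDKN1B, KLRG1 and A2M, a share near the 12.6% of all genes that fell. Neither was called with the factor (edgeR adjusted p = 0.109 and 0.264). Some markers of other lineages were called on CDKN1B. GNLY, 1 of 6 T and NK markers, and CD163, 1 of 8 myeloid markers, fell, shares near the 12.6% of all genes that fell. Of 6 stromal and endothelial markers, COL3A1 and COL1A2 fell and COL1A1 rose. None of these 5 markers was called with the factor or without MEC1. Their part in the other slopes was not tested.

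**Figure D5:**
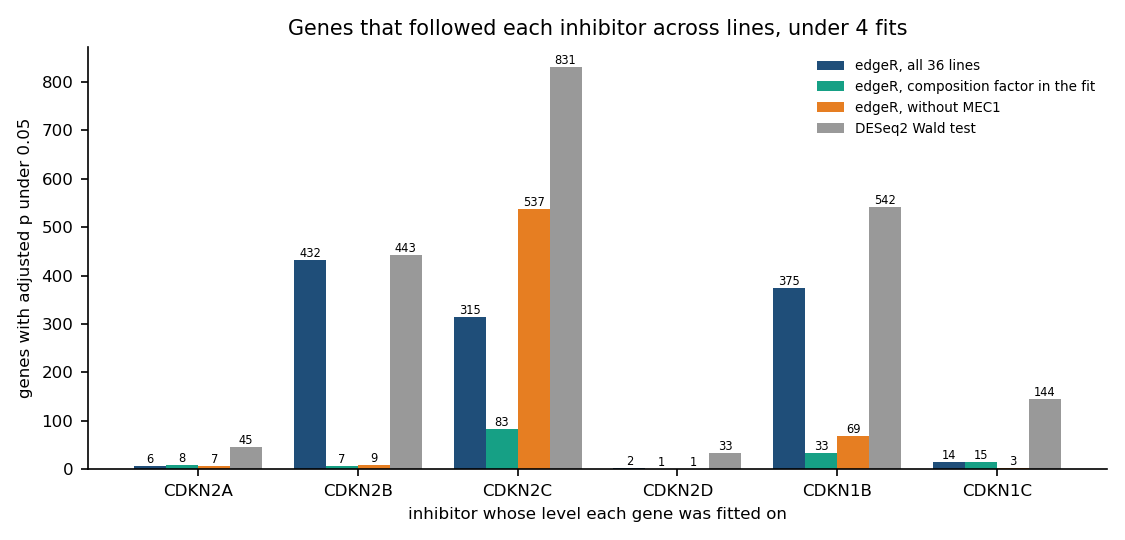
Number of genes called on each inhibitor (adjusted p under 0.05) under 4 fits. The counts for CDKN2B fall to 7 with the composition factor in the fit, against 432 without it, and those for CDKN1B fall to 33, against 375, while 83 genes are called for CDKN2C against 315.

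CDKN1C encodes p57, an imprinted KIP inhibitor known for its part in development and in resting stem cells. It was low in most lines and high in a few. It lies on chromosome 11 at 2883213 to 2885773. JEKO1 had 687.8 CPM, UPN1 488.6, RIVA 317.8, SP53 280.1 and U2932 242.6, and 8 lines passed 100 CPM. The lowest were KARPAS1718 at 4.11 CPM, JVM2 at 4.15, SUDHL4 at 4.53, OCILY19 at 5.63 and SUDHL16 at 5.76, and 10 lines were under 10 CPM, though none was at background. The median was 20.6 CPM. KARPAS1718, highest of all lines for CDKN2A and CDKN2C, was among the lowest for CDKN1C.

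On CDKN1C 14 genes were called (0.582% of 2405), 3 rising (0.125%) and 11 falling (0.457%). With the TMM factor, whose rho with CDKN1C was 0.44, 15 (0.624%) were called, 12 rising (0.499%) and 3 falling (0.125%). CEBPA, a myeloid transcription factor gene, was among the genes called in both fits. It rose by 0.42 ± 0.09 (edgeR, adjusted p = 0.0428), and 8 lines each ended that call when left out. By rank the nearest genes were TIMP2 (rho 0.69), CEBPA (0.63) and CD276 (0.62). Without the factor TIMP2 and CD276 were not called (edgeR adjusted p = 0.235 and 0.0512). The most opposed were CDK6, the INK4 target kinase (-0.65, slope -0.41 ± 0.12, edgeR adjusted p = 0.0715), the glycolytic enzyme HK2 (-0.64) and MAP2K2 (-0.63). CDK6, with a median of 214 CPM, was at 6.25 in JEKO1, 13.6 in SP49, 30.7 in SP53 and 80.2 in UPN1. GRANTA519, MAVER1 and MINO had 35.2, 34.7 and 35.3 CPM. All of these lines were named above as mantle cell lymphoma lines and had 62.1 to 687.8 CPM of CDKN1C. REC1, of the same disease, had 21.9 CPM of CDK6 and 14.9 of CDKN1C. JVM2, not named above as such a line but at 2051.2 CPM of CCND1, had 208.1 CPM of CDK6 and 4.15 of CDKN1C. The part of disease class in this rho was not tested. None of the 83 pathway genes was called by edgeR without the factor. With it ID1, an inhibitor of differentiation factors named after its values were seen, rose by 0.67 ± 0.16 (edgeR, adjusted p = 0.0455). Of the 83, 13 had an unadjusted p under 0.05, as did 346 of all 2405 genes (14.4%), and DESeq2 called 7, against 144 of all genes (5.99%), so both shares were near those of all genes. None of 16 tested neighbours on chromosome 11 was called.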

How the data were processed

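RNA of 36 lymphoma cell lines was measured by targeted RNA-Seq. The deposited table of whole-number counts per target carries no scaling, and the authors' second deposited table held log2 values, which matched log2(count / library factor + 1) within 0.00529. The submitters' processing notes name genome build hg38. The sources used here give neither aligner nor counting method. The 10 targets named ER and a number, whose identity is not stated, were treated as control probes and left out of library sizes (at most 0.0265% of counts). Counts were scaled by TMM in edgeR 4.0.16 and log2 CPM used a prior count of 2. Slopes were edgeR quasi-likelihood tests over the 2406 of 2549 genes that reached 10 CPM in 4 or more lines. The SE is the slope over the square root of F. The fit was also run on simulated counts that drew each gene independently. That simulation could not show effects of RNA composition or of related lines on the calls. With 1 library per line, p-values measure the spread between lines. Coordinates came from GENCODE release 29.

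The members and lists were chosen with earlier results of these data known. Of 148 list genes 110 were in the panel. Genes were named by rule: the 3 highest and 3 lowest rho per inhibitor, up to 4 called genes per list and direction, panel genes within 5 Mb, and the 5 highest and lowest lines. Exceptions are stated, and a few genes that met the rule are not reported here. Alternatives were DESeq2 1.42.0 size factors and Wald test, limma 3.58.1 on the authors' log2 values, no filter, the TMM factor as a covariate, no MEC1, no 2 farthest lines, other backgrounds and a prior of 0.5, and, added after seeing the data, each line left out and 10 counts as background for 2 genes together.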

Additional observations from a re-analysis of the deposited data

Results flagged for a closer look

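The highest control probe of MEC1 drew 424 counts, above the 3 counts that a count of 0 allows and above the median of 10 counts over the 36 libraries. In the same library CDKN2A had 581 counts and CDKN2B 741.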

How the results depend on the processing

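The levels depended little on the scaling. With 10 counts as background 3 lines rather than 6 were at background for CDKN2B and 0 rather than 1 for CDKN2C, 2 rather than 4 were for CDKN2A and CDKN2B together (an alternative added after seeing the data), and a prior count of 0.5 gave CDKN2B a spread of 2.48 log2 units.

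Counts of called genes depended on the fit. DESeq2 size factors gave 10 genes on CDKN2A, 11 on CDKN2B, 745 on CDKN2C and 1 on CDKN2D, and 0 slopes between inhibitors. The DESeq2 Wald test gave 45 on CDKN2A, 831 on CDKN2C, 33 on CDKN2D and 144 on CDKN1C, and 2 between inhibitors. The TMM factor as a covariate gave 7 on CDKN2B, 83 on CDKN2C, 1 on CDKN2D and 33 on CDKN1B, and 2 between inhibitors. Without MEC1 the counts were 9 on CDKN2B, 537 on CDKN2C, 1 on CDKN2D, 69 on CDKN1B and 3 on CDKN1C, and 0 between inhibitors. Without the 2 lines farthest from the median they were 9 on CDKN2A, 833 on CDKN2C, 9 on CDKN2D, 97 on CDKN1B and 4 on CDKN1C. limma on the authors' log2 values gave 2 on CDKN2A, 1 on CDKN2B, 777 on CDKN2C, 0 on CDKN2D (91 at an unadjusted p under 0.05), 194 on CDKN1B and 9 on CDKN1C, and 2 between inhibitors. The cause of these shifts was not tested.

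With each line left out in turn the counts ran from 3 (OCILY19) to 14 (SP53) on CDKN2A, from 7 (DB) to 601 (KARPAS1718) on CDKN2B, from 89 (HC_1) to 878 (UPN1) on CDKN2C, from 1 (MEC1) to 9 (JEKO1) on CDKN2D, from 42 (KARPAS1718) to 594 (SUDHL4) on CDKN1B, from 1 (DB) to 36 (KARPAS1718) on CDKN1C, and from 0 to 2 between inhibitors. Of the single slopes chosen by the naming rule, 22 kept their direction and call with the TMM factor, 64 lost the call and 2 reversed, GNLY (0.08) and COL1A2 (0.03) on CDKN1B. The slopes of CEBPD on CDKN2A, from -0.63 to 0.19 over the lines left out, and of SOX7 on CDKN2D, from -1.69 to 0.31, also reversed, both without OCILY19. No paired analysis was possible because each line has 1 library and no 2 lines share a numbered replicate series. Depth limits the lowest levels: under 10 counts, lines cannot be ordered.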
